A study of Mus musculus with 7 samples.

Results

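The miRNAs described here are 7 mature mouse miRNAs known for their response to low oxygen, to inflammation or to cell stimulation: mmu-miR-210-3p and mmu-miR-210-5p, mmu-miR-21a-5p and mmu-miR-21a-3p, mmu-miR-146a-5p, mmu-miR-146b-5p and mmu-miR-132-3p. They are 7 of the 331 mature miRNAs in the deposited table, and they are written below without the prefix mmu. They were selected on their measured levels in these same libraries, because earlier results had shown them higher in cultured than in uncultured testes. Their difference between culture and no culture is therefore a description, and no test is given for it.

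Small RNAs (total RNA below 100 bp) were sequenced from whole testis of the outbred mouse strain CD1. There were 7 conditions with 1 library each. T6 and T10 were testes of 6.5 and 10.5 dpp (days post-partum; the labels round these ages to 6 and 10), taken without culture, and TAD was the uncultured testis of a 2-month-old adult. T6-12K and T6-12A were explants from 6.5 dpp mice kept in culture for 12 days, the first with KSR (a serum replacement) and the second with AlbuMAX I (a lipid-rich bovine serum albumin), and T10-12K and T10-12A were the same for 10.5 dpp mice. All 4 cultures were kept at 34 °C on agarose blocks at the boundary of medium and gas, in 95% air with 5% CO2. Before this the testis had been freed of its tunica albuginea and cut. The paper counts an entire testis as 1 explant at 6.5 dpp, but only part of a testis at 10.5 dpp. Explant form and starting age therefore cannot be told apart in the cultures. The cultures thus differed from their starting testes both in culture and in age, and no uncultured testis of the age reached by the explants was analysed here, so that culture and age cannot be told apart. An explant mixes germ cells with Sertoli, peritubular, interstitial and blood cells, and fewer cells of a type and less RNA per cell cannot be told apart in such samples. With 1 library per condition, every interval below covers counting error only, and none covers variation between animals or explants.

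A mature miRNA is cut from one arm of an RNA hairpin and guides the silencing of messenger RNAs that pair with its seed, the bases near its 5′ end. miR-210 is a classical target of the hypoxia-inducible factors and represses mitochondrial proteins such as the iron-sulphur cluster scaffold ISCU. miR-21 is induced in many tissues by injury, inflammation and growth signals and represses Pdcd4, an inhibitor of translation. miR-146a is induced by NF-κB and represses the signalling proteins IRAK1 and TRAF6, which makes it a brake on innate immune signalling, and miR-132 is induced by CREB in stimulated neurons and immune cells. The testis is a tissue with low oxygen inside its tubules and with resident macrophages in its interstitium.

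The mature sequences are shown because their seeds decide which of the 7 can share targets and which could share reads. All 7 names matched the RefSeq table on GRCm38.p6, as did 288 of the 331 names listed. Capitals mark the seed, bases 2 to 8 from the 5′ end.
miR-210-3p: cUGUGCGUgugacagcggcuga
miR-210-5p: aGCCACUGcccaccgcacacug
miR-21a-5p: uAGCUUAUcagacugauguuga
miR-21a-3p: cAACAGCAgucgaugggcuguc
miR-146a-5p: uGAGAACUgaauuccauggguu
miR-146b-5p: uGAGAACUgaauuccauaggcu
miR-132-3p: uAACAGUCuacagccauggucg
All 7 are 22 bases long, and miR-146a-5p and miR-146b-5p share 1 seed. These 2 are identical at 20 of 22 bases and differ by G18A and U21C, counted from the 5′ end with the base of miR-146a-5p first. Both differences lie near the 3′ end, and the number of mismatches allowed in counting is not given in the sources used here, so the split of reads between this pair is uncertain. The other 5 seeds were found in no other matched miRNA of the deposited table, although in RefSeq miR-132-3p shares its seed with miR-212-3p and miR-21a-5p with miR-21c, which were not analysed here.

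The hairpin of miR-210 is shown because both of its arms are described here. It lies at chr7:141221384-141221493 on the minus strand of GRCm38, with no overlapping gene in GENCODE, and capitals mark miR-210-5p (left) and miR-210-3p (right).
Mir210: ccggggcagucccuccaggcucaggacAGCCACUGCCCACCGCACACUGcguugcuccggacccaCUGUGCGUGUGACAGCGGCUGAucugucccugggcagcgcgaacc
The other hairpins lie elsewhere. Mir21a, at chr11:86584067-86584158 on the minus strand, falls in an exonic untranslated part of Vmp1, a gene of autophagy. Mir146 (miR-146a), at chr11:43374397-43374461 on the minus strand, overlaps no annotated gene, whereas Mir146b, at chr19:46342762-46342870 on the plus strand, lies in an intron of Mfsd13a. Mir132, at chr11:75173682-75173747 on the plus strand, lies in an intron of the transcript 1700016P03Rik, 203 bases downstream of Mir212. The 7 miRNAs therefore come from 5 hairpins, and the arms of 1 hairpin are not separate observations of transcription.

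The deposited values are reads divided by 1 factor per library. Reads were estimated back from them and scaled to CPM, counts scaled to a total of 1e+06 reads on the 331 listed miRNAs of the same library. These reads numbered between 7075528 and 13397407 in the 6 prepuberal and cultured libraries but 1628770 in TAD, where 5 reads, the lowest number listed, are worth 3.07 CPM. The pair miR-202-5p and miR-202-3p, known from gonads, was listed in all 7 libraries, at 93.7 to 234 CPM together. Over the listed miRNAs, CPM were on balance lower in culture: the median log2 ratio of a cultured library to its starting testis was -1.21 for T6-12K and -0.63 for T6-12A, and -0.76 for T10-12K and -0.78 for T10-12A. A higher CPM in culture thus stands against a set of miRNAs of which most were lower.

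All 7 miRNAs stood higher in each of the 4 cultured libraries than in both T6 and T10, a pattern met by 11.2% of all listed miRNAs. When TAD was included, in 6 of the 7 every culture exceeded every uncultured testis, against 4.83% of all miRNAs (16 of 331). The exception was miR-146a-5p, whose level in TAD exceeded that of T6-12K. Since the 7 were chosen for this pattern, nothing is read from these counts.

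**Figure D1:**
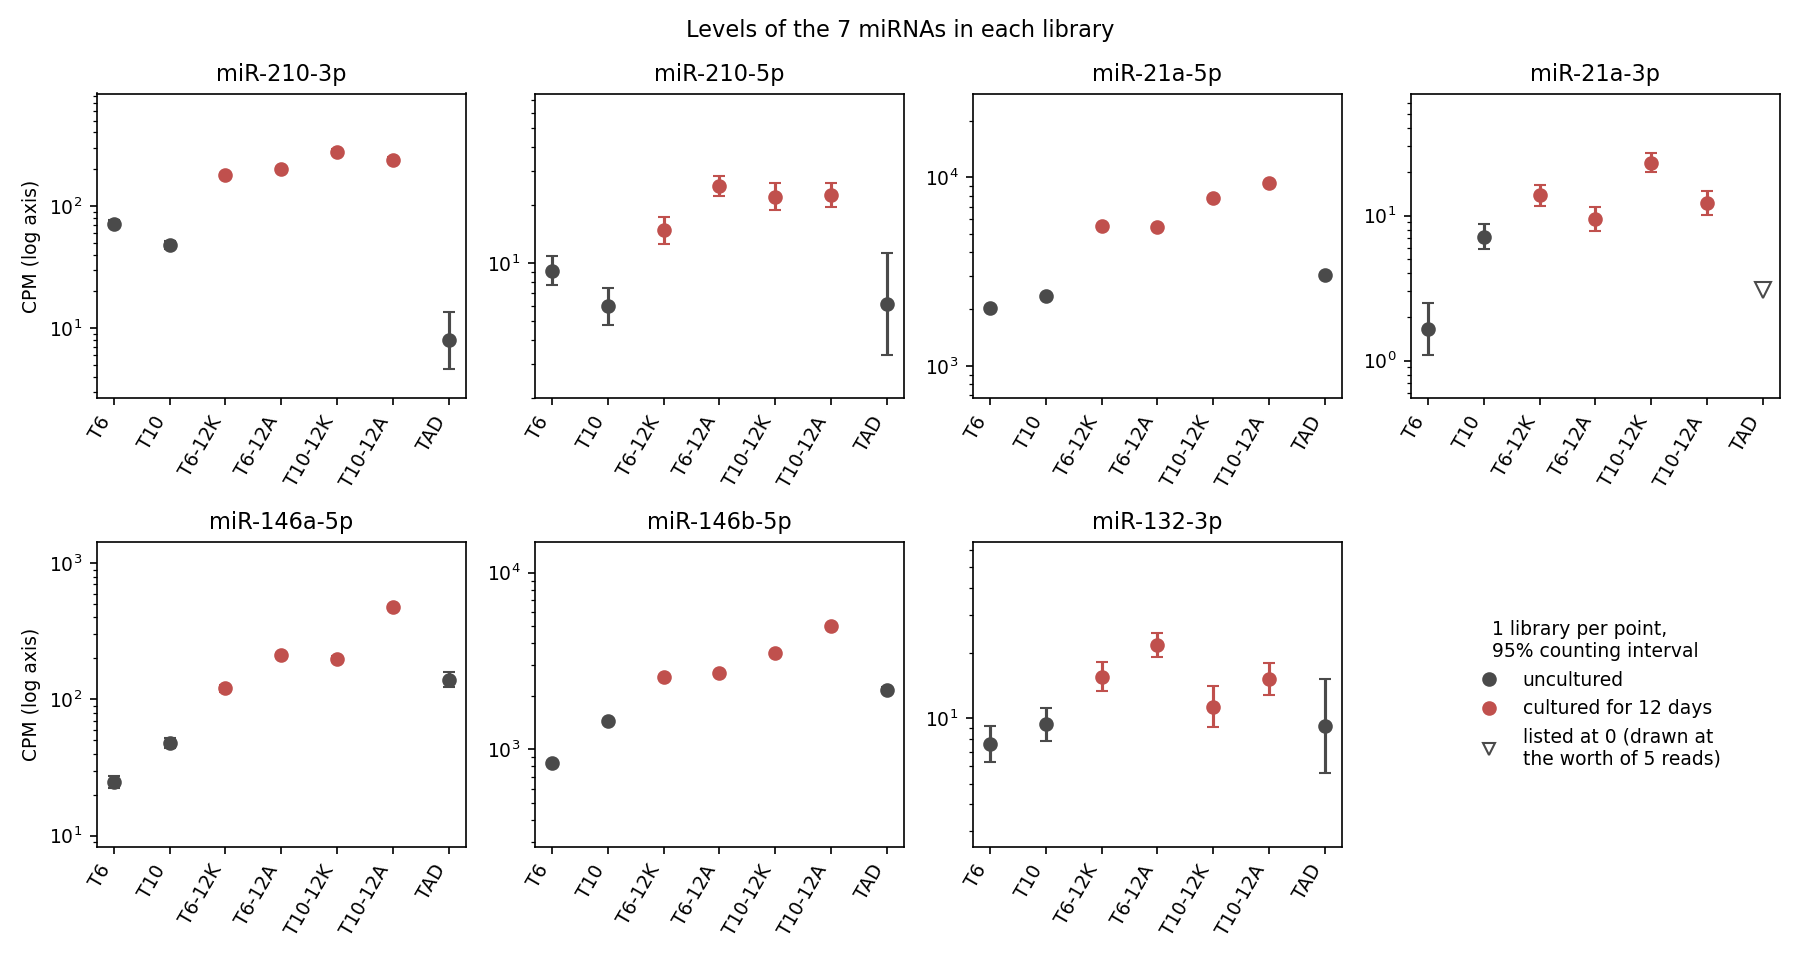
Levels of the 7 miRNAs in CPM on a log axis, 1 panel per miRNA and 1 point per library, with 95% Wilson intervals of counting error; grey marks uncultured and red cultured libraries, and the open triangle marks miR-21a-3p in TAD, listed at 0 and drawn at the worth of 5 reads. The red points lie above the grey ones except for miR-146a-5p, where TAD (140 CPM) lies above T6-12K (120 CPM).

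miR-210-3p, the arm of miR-210 best known to follow hypoxia, measured 71.5 CPM in T6, 48.1 CPM in T10 and 7.98 CPM in TAD. The KSR cultures held 178 CPM (T6-12K) and 278 CPM (T10-12K), and the AlbuMAX I cultures 202 CPM (T6-12A) and 239 CPM (T10-12A). The groups did not overlap, the 4 cultures lay within 1.56-fold of each other, and the adult testis was by far the lowest. The adult value rests on 13 reads (95% interval from 4.66 to 13.7 CPM), and TAD lay below T6 by 8.95-fold and below T10 by 6.02-fold. The log2 ratio of TAD to T6 in CPM was -3.16 (interval from -3.95 to -2.37). It stayed negative under the 5 other scalings, between -6.20 and -2.99. The lowest of these was for reads with no scaling, where the smaller number of reads in TAD alone lowers the ratio. With 10 CPM added it was -2.18, but added CPM cannot turn its sign.

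miR-210-5p, the other arm, was rarer than miR-210-3p in all 7 libraries, at 9.13 CPM in T6, 5.97 CPM in T10 and 6.14 CPM in TAD. In KSR its level was 14.8 CPM in T6-12K and 22.0 CPM in T10-12K, and in AlbuMAX I it was 25.1 CPM in T6-12A and 22.4 CPM in T10-12A. The groups did not overlap. Unlike miR-210-3p, its CPM in the adult was close to that in T10, with a log2 ratio of 0.04 (interval from -0.91 to 0.99). The adult value rests on 10 reads, and the ratio was -0.70 in the deposited values, so its direction is uncertain. Of the reads on both arms, miR-210-5p held 11.3% in T6 (122 of 1077), 80 of 724 reads in T10, and between 7.36% and 11.1% in culture. In TAD it held 43.5%, or 10 of 23 reads, with a Wilson interval from 25.6% to 63.2% that lies above all the other shares.

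miR-21a-5p, the guide arm of miR-21, was the most abundant of the 7. It measured 2018 CPM in T6, 2359 CPM in T10 and 3042 CPM in TAD. Its cultured levels were 5522 CPM (T6-12K) and 5445 CPM (T6-12A) from the younger testes, and 7751 CPM (T10-12K) and 9291 CPM (T10-12A) from the older ones. The cultures lay above all uncultured testes, and in CPM both 10.5 dpp cultures lay above both 6.5 dpp cultures. In the deposited values T10-12K (53545) lay below T6-12K (57056). By level miR-21a-5p ranked 30 among the 331 miRNAs in T6 and 32 in T10, and it ranked between 11 and 16 in culture.

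miR-21a-3p, the arm of miR-21 that is mostly degraded, was counted in few reads: 22 in T6 (1.65 CPM), 96 in T10 (7.17 CPM) and none listed in TAD. It measured 13.8 CPM in T6-12K and 23.2 CPM in T10-12K, the KSR cultures, and less in the AlbuMAX I cultures T6-12A (9.45 CPM) and T10-12A (12.2 CPM), all from 102 to 164 reads. The cultures lay above T6 and T10, but the interval of T6-12A, from 7.79 to 11.5 CPM, overlapped that of T10, from 5.87 to 8.75 CPM. Because the table lists no value below 5 reads, the adult level may lie anywhere below 3.07 CPM. Its share of the reads on both arms was 0.303% in T10 and 0.298% in T10-12K, but 0.131% in T10-12A and 0.0815% in T6, so the arms did not keep 1 ratio across the libraries.

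**Figure D2:**
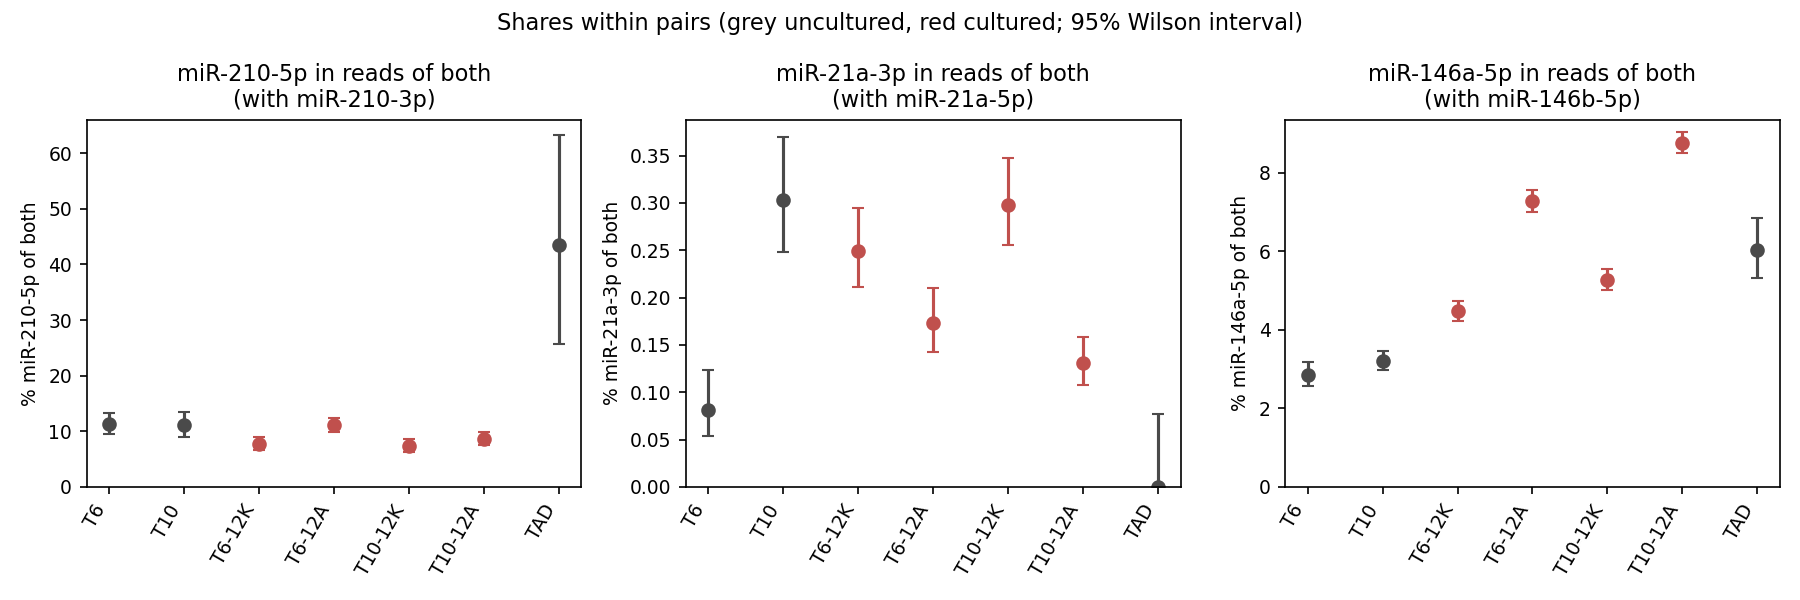
Share of the first miRNA in the reads of a pair, in percent, for miR-210-5p with miR-210-3p, miR-21a-3p with miR-21a-5p and miR-146a-5p with miR-146b-5p, 1 point per library with its 95% Wilson interval (grey uncultured, red cultured). TAD stands apart for miR-210-5p at 43.5%, and the 2 AlbuMAX I cultures are the highest for miR-146a-5p at 7.27% and 8.76%.

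miR-146a-5p, the NF-κB-induced member of the miR-146 pair, measured 24.8 CPM in T6, 47.9 CPM in T10 and 140 CPM in TAD. The KSR cultures T6-12K and T10-12K held 120 and 197 CPM, and the AlbuMAX I cultures T6-12A and T10-12A held 211 and 478 CPM. The groups overlapped through TAD and T6-12K alone, and their intervals (123 to 159 CPM and 114 to 127 CPM) overlapped as well. Without TAD, or without T6-12K, all 7 miRNAs were above every remaining uncultured library, as were 36 and 21 of the listed miRNAs in turn. Among the 4 cultures miR-146a-5p varied most of the 7, by 3.97-fold.

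miR-146b-5p, made from a hairpin on another chromosome with the same seed, was far more abundant, at 841 CPM in T6, 1442 CPM in T10 and 2181 CPM in TAD. The younger explants held 2571 CPM (T6-12K) and 2695 CPM (T6-12A), and the older ones 3533 CPM (T10-12K) and 4977 CPM (T10-12A). The groups did not overlap, though T6-12K exceeded TAD by only 1.18-fold. In CPM both miR-146 members were lowest in T6, higher in T10 and highest in TAD among the uncultured testes. The log2 ratio of TAD to T10 for miR-146b-5p was 0.60 in CPM but -0.14 in the deposited values. The share of miR-146a-5p in the reads of the pair was 2.86% in T6, 3.22% in T10 and 6.03% in TAD. In the KSR cultures it was 4.47% (T6-12K) and 5.28% (T10-12K), and in the AlbuMAX I cultures 7.27% (T6-12A) and 8.76% (T10-12A). This share was higher in every culture than in T6 and T10, and it does not depend on the scaling of the libraries, since both members are counted in the same library.

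miR-132-3p, known from CREB signalling, was among the rarest, at 7.63 CPM in T6, 9.40 CPM in T10 and 9.21 CPM in TAD, the last from 15 reads. The 6.5 dpp explants held 15.6 CPM (T6-12K) and 21.9 CPM (T6-12A), and the 10.5 dpp explants 11.3 CPM (T10-12K) and 15.3 CPM (T10-12A). In CPM the groups did not overlap, but the interval of T10-12K, from 9.09 to 14.1 CPM, overlapped those of T10 and TAD. On the deposited scale the order turned, with T10-12K at 78.1 and T10 at 81.7, so whether this miRNA was higher in all 4 cultures depended on the scaling.

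Set against the testis of the same starting age, the counts of the 7 that were at least 2-fold higher in CPM were 6 of 7 in T6-12K (background over all listed miRNAs 10.9%) and 7 of 7 in T6-12A (background 12.4%). They were 6 of 7 in T10-12K (background 8.21%) and 5 of 7 in T10-12A (background 10.6%). The values below 2-fold were those of miR-210-5p in T6-12K (1.62-fold), miR-132-3p in T10-12K (1.20-fold) and in T10-12A (1.62-fold) and miR-21a-3p in T10-12A (1.70-fold). In all 4 comparisons 4 miRNAs were at least 2-fold higher, namely miR-210-3p, miR-21a-5p, miR-146a-5p and miR-146b-5p, against 5.74% of all miRNAs. These comparisons share their starting libraries, T6 for one pair and T10 for the other.

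The largest of these 28 ratios was that of miR-146a-5p in T10-12A, a log2 ratio of 3.32 (interval from 3.20 to 3.44), which ranked 10 among 331 miRNAs. The lowest was that of miR-132-3p in T10-12K, at 0.27 (interval from -0.14 to 0.67), which ranked 59 among 329 and is the only one of the 28 whose interval reaches 0. All 28 lay above the median of the listed miRNAs.

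**Figure D3:**
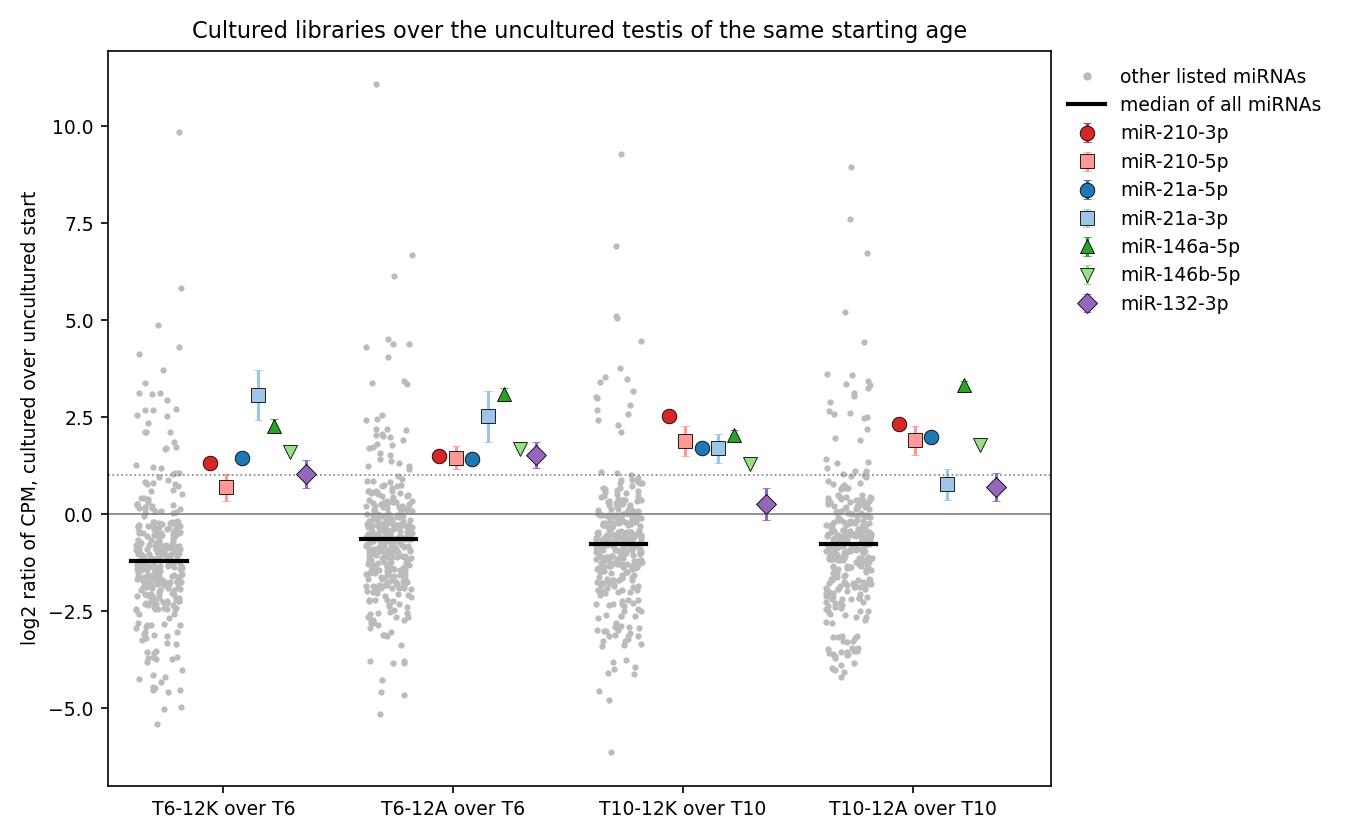
Log2 ratio of CPM of each cultured library over its uncultured starting testis, for the 7 miRNAs (coloured, with 95% intervals of counting error) and all other listed miRNAs (grey, values at 0 set to the lowest number of reads listed); the black bar is the median of all miRNAs and the dotted line marks 2-fold. The coloured points lie between 0.27 and 3.32, while the medians lie between -1.21 and -0.63.

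In CPM the ratio of culture to start differed with the starting age, and not in the same direction for each miRNA. The mean log2 ratio of both cultures to their start was 1.41 at 6.5 dpp and 2.42 at 10.5 dpp for miR-210-3p, a difference of 1.01 (interval from 0.86 to 1.17) that was 0.50 in the deposited values. For its other arm, miR-210-5p, the values were 1.08 and 1.89. The starting testes differed too: the log2 ratio of T10 to T6 was -0.57 for miR-210-3p and -0.61 for miR-210-5p.

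miR-21a-5p had log2 ratios of 1.44 and 1.85 in CPM, but the order turned in the deposited values, with 1.64 at 6.5 dpp and 1.53 at 10.5 dpp. miR-21a-3p had the larger ratio in the younger explants, with 2.79 at 6.5 dpp and 1.23 at 10.5 dpp, and its level had been 4.35-fold higher in T10 than in T6 before culture. miR-132-3p also had the smaller log2 ratio in the older explants, 0.48 against 1.27. The miR-146 members differed little between the ages in CPM, with 2.69 and 2.68 for miR-146a-5p and 1.65 and 1.54 for miR-146b-5p. In the deposited values they were lower in the older explants, with 2.89 and 2.36 for miR-146a-5p and 1.85 and 1.23 for miR-146b-5p. None of these differences between ages could be set against variation between animals. The form of the explant also differed with starting age, and its part was not tested.

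The paper describes the AlbuMAX I explants as smaller than those in KSR, with nuclei that were often aberrant, and took its cell proportions from KSR alone. The part of this difference in the ratios between supplements was not tested. Of the 7, miR-146a-5p differed most between the supplements in CPM. It was higher in AlbuMAX I than in KSR by a log2 ratio of 0.81 at 6.5 dpp (interval from 0.71 to 0.91) and 1.28 at 10.5 dpp (from 1.19 to 1.37). At 10.5 dpp it ranked 14 among 319 miRNAs. At 6.5 dpp, however, the median of all listed miRNAs was itself higher in AlbuMAX I, by 0.64, against -0.02 at 10.5 dpp, so that miR-146a-5p lay only 0.17 above the median of the younger explants. Its sign was the same at both ages under the 5 other scalings, and added CPM cannot turn it. miR-21a-3p was lower in AlbuMAX I at both ages, at -0.55 (from -0.92 to -0.18) and -0.93 (from -1.28 to -0.57), also under all of them.

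For the 2 most abundant miRNAs and for miR-210-3p the ratios lay nearer to 0 than those of miR-146a-5p. The log2 ratio of AlbuMAX I to KSR for miR-146b-5p was 0.07 at 6.5 dpp and 0.49 at 10.5 dpp, and the first of these was negative in the deposited values, at -0.19, and with median-of-ratios factors, at -0.49. The ratios of miR-210-3p were 0.18 and -0.22 and those of miR-21a-5p were -0.02 and 0.26. At 6.5 dpp the sign for both miRNAs depended on the scaling, and both lay below the median of all miRNAs, miR-210-3p with a difference of -0.46 and miR-21a-5p with one of -0.66. miR-132-3p stood at 0.49 and 0.43, and miR-210-5p at 0.76 and 0.02, the last with an interval from -0.29 to 0.33.

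**Figure D4:**
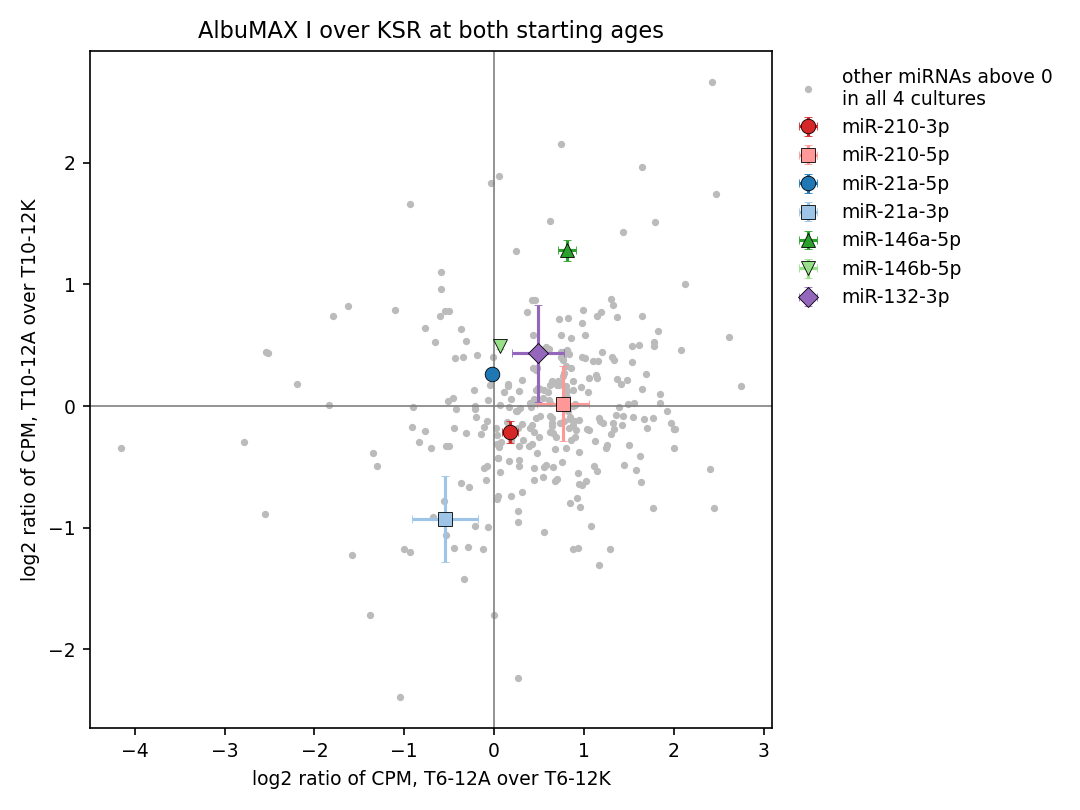
Log2 ratio of CPM between AlbuMAX I and KSR cultures at 6.5 dpp (horizontal axis) and 10.5 dpp (vertical axis) for the 7 miRNAs, with 95% intervals of counting error, and in grey for the other miRNAs above 0 in all 4 cultures. miR-146a-5p lies high on both axes (0.81 and 1.28) and miR-21a-3p low on both (-0.55 and -0.93), while miR-210-3p and miR-21a-5p lie near the origin.

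Summed over the 7 miRNAs, the level was 2974 CPM in T6, 3920 CPM in T10 and 5386 CPM in TAD. It was 8436 CPM (T6-12K) and 8609 CPM (T6-12A) in the younger explants, and 11815 CPM (T10-12K) and 15035 CPM (T10-12A) in the older ones. miR-21a-5p and miR-146b-5p carried most of this sum, with shares between 56.5% and 67.9% and between 28.3% and 40.5%.

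The gap between the lowest cultured and the highest uncultured library shows how far each miRNA stood from overlap, and how that depended on scaling. In CPM this log2 gap was 1.32 (miR-210-3p), 0.84 (miR-21a-5p), 0.70 for miR-210-5p, 0.40 for miR-21a-3p, 0.27 for miR-132-3p and 0.24 for miR-146b-5p, and -0.22 for miR-146a-5p. Over the 7 alternative scalings and pseudocounts the gap had its lowest value at 0.89 and its highest at 2.03 in miR-210-3p, and at 0.79 and 1.44 in miR-21a-5p. It stayed above 0 for 5 of the 7 miRNAs. Adding 1 or 10 CPM cannot turn the sign of a gap. The gap of miR-146a-5p was above 0 under all 5 other scalings. Its highest value was 0.90, for reads with no scaling, where lower depth lowers the TAD value. It was below 0 only in CPM, with or without added CPM. That of miR-132-3p was above 0 under the other scalings except in the deposited values (-0.064) and in reads with no scaling (-0.66). Scaling also changed the counts over all listed miRNAs: the 16 higher and 69 lower in every culture in CPM became 37 and 33 with median-of-ratios factors, 44 and 22 by the trimmed mean of M-values, 26 and 40 in CPM without the 10 most abundant miRNAs, and 10 and 4 in reads with no scaling. The median over all miRNAs and all 4 ratios of culture to start was, on the log2 scale, -0.83 in CPM, -0.92 in the deposited values, -0.20 with median-of-ratios factors, -0.07 with the trimmed mean, -0.40 without the 10 most abundant miRNAs and -1.46 with no scaling.

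**Figure D5:**
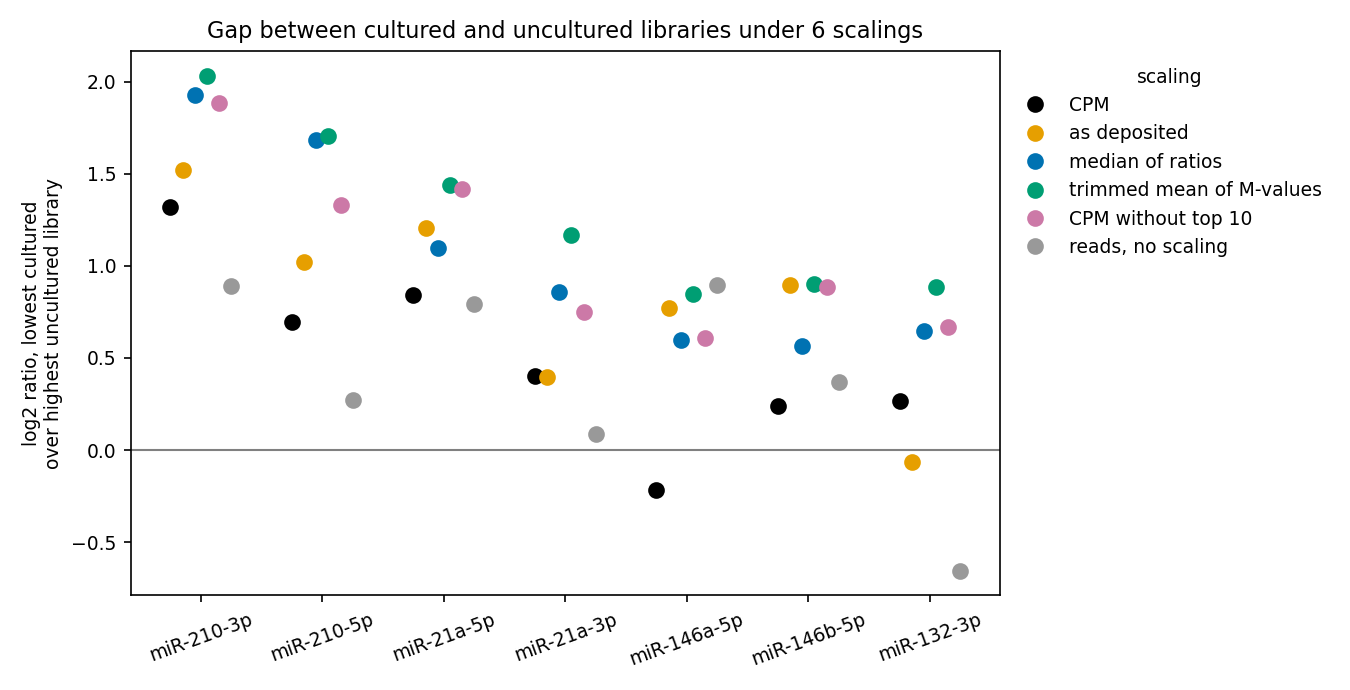
Log2 ratio of the lowest cultured over the highest uncultured library for each of the 7 miRNAs under 6 scalings; points above the line at 0 mean that every cultured library exceeded every uncultured one. miR-210-3p and miR-21a-5p keep the widest distance from 0 at their lowest points (0.89 and 0.79), and the points below 0 belong to miR-146a-5p in CPM (-0.22) and to miR-132-3p in deposited values and unscaled reads.

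The 10 other miRNAs of the 16 above every uncultured library were named after their values were seen. They included miR-221-5p, miR-221-3p and miR-222-3p, which come from 1 cluster, and miR-23a-3p, miR-24-3p, miR-24-2-5p and miR-27a-5p, of which a second cluster is a source, besides miR-3074-5p, miR-10b-5p and miR-6240. The gap of miR-221-5p, 1.49 on the log2 scale, was the widest of all 331, and that of miR-210-3p the next. miR-222-3p, at 0.84, was level with miR-21a-5p.

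The profiles most like those of the 7 were found by the root mean square difference between log2 CPM over the 7 libraries, each profile centred on its own mean, among the 251 other miRNAs above 0 in every library. For miR-21a-5p these were miR-222-3p (0.24), miR-146b-5p (0.25) and miR-24-3p (0.41). miR-146b-5p had miR-21a-5p, miR-3074-5p (0.31) and miR-429-3p (0.36) nearest to it, and miR-146a-5p had miR-146b-5p (0.58), miR-221-3p (0.60) and miR-101a-3p (0.61). miR-132-3p lay nearest to miR-23a-3p (0.30), miR-24-3p (0.34) and miR-27a-3p (0.38).

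Over the 7 libraries miR-210-3p had no close neighbour. The profile most like it was that of its own other arm, at a difference of 1.05, then miR-221-5p at 1.13 and miR-222-3p at 1.21. By contrast, miR-210-5p lay at 0.42 from miR-21a-5p. The 2 arms of miR-210 differed most in TAD, where miR-210-3p rests on 13 reads. There the ratio of miR-210-3p to miR-210-5p reads was 1.30, against 7.83 to 12.6 in the other libraries. The differences without TAD were not computed. miR-21a-3p, listed at 0 in TAD, was not compared.

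Of 16 other miRNAs linked to hypoxia, 14 were in the deposited table and the others were not analysed here. Of the 14, 2, miR-23a-3p and miR-24-3p, stood above every uncultured library in all cultures, against 4.83% of all listed miRNAs. None of the 14 was at least 2-fold higher than its start in all 4 cultures, against 5.74% of all. The median of their mean log2 ratios to the start was -0.46, against -0.91 over all listed miRNAs, with 3 above and 11 below 0.

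Of 12 other miRNAs linked to inflammation, 7 were analysed here, and their median was 0.21, against -0.91 over all listed miRNAs. miR-221-3p and miR-222-3p, which promote proliferation by repressing the cell cycle inhibitor p27, were at least 2-fold higher in all 4 cultures. This held for 5.74% of all listed miRNAs, and these 2 come from 1 cluster. miR-221-3p measured 11.1 CPM in T6, 17.5 CPM in T10 and 41.1 CPM in TAD, and from 41.7 to 112 CPM in culture. miR-222-3p measured 50.4, 46.4 and 66.3 CPM in the same uncultured testes and from 119 to 226 CPM in culture. miR-31-5p was at least 2-fold lower in all 4 cultures, from 51.6 and 61.1 CPM in T6 and T10 to between 15.3 and 22.7 CPM. So were 73 of the 331 listed miRNAs. miR-9-5p was lower than its start in all 4 cultures, with a mean log2 ratio of -1.09.

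Markers of other cells moved as follows. Of 6 leukocyte miRNAs, 3 were analysed here, and their sum was 49.9 to 136 CPM in culture against 66.8, 149 and 123 CPM in T6, T10 and TAD. The lymphocyte miRNA miR-150-5p was listed at 0 in 3 of the 4 cultures, and miR-142a-5p, a miRNA of blood cells, measured 5.54 to 10.2 CPM in culture against 8.53 and 8.81 in T6 and T10. Most of the sum was miR-342-3p, at 44.4 to 129 CPM in culture against 54.6, 138 and 77.4 CPM in T6, T10 and TAD. The leukocyte sum in culture was within or below the range of the uncultured testes. Against the start of the same age it was higher in T6-12A (136 against 66.8 CPM in T6) and lower in the other cultures.

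Both endothelial miRNAs of the miR-126a hairpin were listed, summing to 124 to 249 CPM in culture against 181 to 405 CPM without it. The red-cell miRNAs miR-451a and miR-144-3p were listed at 0 in all 4 cultures. In CPM, 3 of the 4 red-cell miRNAs were below every uncultured library in all cultures, as were 69 of all 331 listed miRNAs. The other red-cell miRNA, miR-486a-5p, measured 445 to 2554 CPM in culture against 1103 to 1678 CPM without it. The 1 analysed miRNA of 3 from striated muscle measured 2.60 to 25.9 CPM in culture and 23.3 to 30.4 CPM without it. Of the 4 mesenchymal miRNAs, miR-143-3p measured 156675 to 212659 CPM in culture against 103729 in T6, 145909 in T10 and 258115 in TAD. The others, miR-145a-5p, miR-199a-3p and miR-214-3p, were lower in all 4 cultures than in their starts, with mean log2 ratios of -1.13, -0.72 and -1.48, and the median of the 4 was -0.92, against -0.91 over all listed miRNAs. The 4 miRNAs of meiotic and later germ cells, of the miR-34 and miR-449 families, were at least 2-fold higher in all 4 cultures. This held for 5.74% of all listed miRNAs. The germ cell miRNAs had sums of 611 to 1950 CPM in culture against 72.7 and 162 in T6 and T10. Their sum in TAD was 25465 CPM, where miR-210-3p was lowest. The part of the mesenchymal and germ cell miRNAs in the levels of the 7 miRNAs was not tested.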

How the data were processed

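The authors trimmed adaptors, checked reads with FastQC, aligned them with Bowtie to mm10 and then to miRBase, and discarded miRNAs with fewer than 50 reads. HTSeq and DESeq are named without a role in the submitters' processing notes. The deposited signal per miRNA and library is reads divided by 1 factor. How reads that fit several miRNAs were counted is not given in the sources used here. Each column was divided by the worth of 1 read, 0.615 in T6 to 3.19 in TAD, found as the step of its low values, and 100% of values up to 10000 reads came out whole within 0.1 read. This estimate was tested on simulated data. CPM were taken over the 331 listed miRNAs, and values at 0 were set to the lowest number listed where a ratio was needed. Shares carry 95% Wilson intervals and ratios 95% intervals on the log scale. Without replicates, no model of counts was used. The members, lists and comparisons were chosen with earlier results of these data known. Named miRNAs were the 7, relatives, 2 lists, cell markers and the 3 likest profiles of each. Alternatives covered scaling (median of ratios, trimmed mean of M-values with 30% of M and 5% of A trimmed, own code), pseudocounts, a filter, fold limits and left-out libraries. Positions are from GENCODE mouse release 21. The versions were matplotlib 3.10.9, scipy 1.17.1, pandas 2.3.3, numpy 2.4.6 and Python 3.11.15.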

Additional observations from a re-analysis of the deposited data

Results flagged for a closer look

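For 2 of the 7 miRNAs the difference between the supplements pointed one way in the younger explants and the other way in the older ones, in CPM. For miR-210-3p the log2 ratio of AlbuMAX I to KSR was 0.18 at 6.5 dpp and -0.22 at 10.5 dpp, a difference of 0.39 between the ages. For miR-21a-5p it was -0.02 and 0.26, a difference of -0.28. With 1 library per condition neither difference was tested. For miR-210-3p the opposite directions were seen in CPM only. At 6.5 and 10.5 dpp both ratios were negative in the deposited values (-0.08 and -0.18) and with median-of-ratios factors (-0.38 and -0.19). So were both under the trimmed mean of M-values (-0.29 and -0.21) and without the 10 most abundant miRNAs (-0.07 and -0.28). With no scaling both were positive (0.30 and 0.04). For miR-21a-5p both were positive in reads with no scaling (0.10 and 0.52), and they stayed opposite under the other scalings.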

How the results depend on the processing

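Of the 28 log2 ratios of a culture to its start, 27 kept their sign under all 5 other scalings. Of the 14 ratios of AlbuMAX I to KSR, 8 did. The 2 pseudocounts cannot turn the sign of these ratios and are not counted here. The gap of miR-132-3p turned to -0.064 in the deposited values and -0.66 in reads with no scaling. In reads with no scaling TAD lay below T6 and T10 for all 7. Among them were miR-146a-5p (-0.54 and -1.49), miR-146b-5p (-1.66 and -2.44) and miR-21a-5p (-2.44 and -2.67). TAD had 1628770 reads on listed miRNAs against 13363593 in T6 and 13397407 in T10, so unscaled reads lower its ratios by depth alone. Nothing about adult levels is read from these signs. In the deposited values the ratios of TAD to T6 and T10 for miR-21a-5p were also negative (-0.07 and -0.37). The difference between starting ages turned sign in 2 of 7 alternatives for miR-21a-5p and for miR-146a-5p, and in none for the other 5 miRNAs. The count of listed miRNAs above every uncultured library in all cultures, 16 in CPM, was 37 with median-of-ratios factors, 44 with the trimmed mean of M-values, 10 with no scaling, 26 without the 10 most abundant miRNAs and 5 with a mean of at least 100 CPM, a filter that kept 4 of the 7, of which 3 were above. With 1 library left out it ranged from 16 to 36, the highest without TAD, and the count among the 7 ranged from 6 to 7. Among the 7, the count at least 2-fold higher in T6-12A, 7, was 4 with 10 CPM added and 3 at a 3-fold limit. With the filter it was 4 of the 4 miRNAs kept. The count in T6-12K was 3 at a 3-fold limit, and that in T10-12K was 2 in reads with no scaling. The shares of all listed miRNAs at these settings were not computed, so nothing is read from these counts. No paired analysis was possible because each condition had 1 library and so no replicate numbers to pair, and comparisons were made within each starting age. Depth limited the adult values most, with 13 reads on miR-210-3p, 10 on miR-210-5p and 15 on miR-132-3p.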
